A study of Mus musculus with 2 samples.

Results

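Granulocyte-monocyte progenitors (GMPs) and promyelocytes of mouse bone marrow were chosen by the measured levels of the primary granule genes Mpo, Elane, Prtn3 and Ctsg, so these levels are given below as a description. A barcode was taken when these genes together made up at least 1% of its unique molecular identifiers (UMIs), each of which stands for 1 captured transcript. It also needed at least 200 genes and at most 10% mitochondrially encoded UMIs, hemoglobin transcripts under 5% of UMIs, and no more than 1 UMI each of Cd79a plus Cd79b and of Cd3e, Cd3d plus Cd3g. This gave 341 of the 12259 barcodes that passed the cell filter. The cells came from C57BL/6 mice of 6 months labelled with atherosclerosis, profiled by droplet-based 10x Genomics 3′ sequencing as 1 library per genotype. One library carried the genotype label Apoe(-/-) Itgb3(-/-) and is called null-labelled, and the other carried Apoe(-/-) Itgb3(+/+) and is called control-labelled. Both groups therefore lacked Apoe by label, whose loss raises plasma cholesterol in mice, and differed by label in Itgb3, the gene of integrin β3. The labels name no cell type to which the loss of Itgb3 is limited, and they do not state the number of animals behind a library.

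GMPs are the marrow progenitors that give rise to neutrophils and monocytes, and promyelocytes are the neutrophil precursors in which the primary (azurophil) granules are made. Myeloperoxidase, neutrophil elastase, proteinase 3 and cathepsin G are packed into those granules, and their mRNAs are shut down as the cells become myelocytes and begin to make the secondary granule proteins. The choice between the branches is linked to the transcription factors Gfi1 and Cebpe on the neutrophil side and Irf8 and Klf4 on the monocyte side. Interferons and microbial or cytokine signals are known to act on these progenitors and to change their output.

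The null-labelled library held 37 GMP/promyelocyte barcodes with 1234020 UMIs, and the control-labelled library held 304 with 5667967 UMIs. Their median depth was 30916 and 18105 UMIs, and their median gene number 4364 and 3527.5. Mitochondrially encoded transcripts had medians of 3.32% and 4.17%. The libraries shared 11 cell barcodes, of which 1 was among the control-labelled members and 0 among the null-labelled ones. A doublet score marked 1 of 37 and 11 of 304 of them, which were kept. With 1 library per genotype there is no replicate and no test, so every difference below is between 2 libraries, and each 95% interval covers counting error only. Levels are given as counts per 1000000 UMIs (CPM), the UMIs of a gene summed over the members of a library and scaled to 1000000 UMIs of those members. Because each transcript is counted at its 3′ end, CPM is not divided by gene length. Differences are named by size, with 2-fold as the limit.

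The barcodes were scarcer and poorer in primary granule transcripts in the null-labelled library, which is a description since those transcripts chose them. They made up 1.24% of passing barcodes in the null-labelled library (exact Clopper-Pearson interval 0.877 to 1.71) and 3.27% in the control-labelled library (2.92 to 3.66), a log2 ratio of -1.40 (-1.93 to -0.90). The gap widened with the stringency of the granule minimum. At 2% of UMIs, 12 of 2974 and 210 of 9285 barcodes remained, a log2 ratio of -2.49, and at 5% there were 0 and 36. Just inside the 1% limit, the lowest share was 1.016% in the null-labelled and 1.006% in the control-labelled library, and just outside it the highest was 0.943% and 0.994%. Between 1.0% and 1.1% lay 2 and 17 barcodes, and between 0.9% and 1.0% again 2 and 17. The hemoglobin and lymphoid limits removed 19 of 56 null-labelled and 111 of 415 control-labelled barcodes that met the granule minimum. The lymphoid limits were failed by 18 and 73 of them and the hemoglobin limit by 2 and 42, with some failing both. The lymphoid limits are numbers of UMIs and not shares, so they depend on depth, and their part in the gap was not tested. Among the barcodes that failed the cell filter, 3 in each library met the marker limits.

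Elane, which encodes neutrophil elastase (ENSMUSG00000020125, plus strand of chr10:79886247-79888215 in mm10), was at 6616 CPM in null-labelled and 10136 CPM in control-labelled members. Prtn3, its neighbour encoding proteinase 3 (plus strand of chr10:79874476-79883174), had 7002 CPM and 10032 CPM. Mpo, encoding myeloperoxidase (plus strand of chr11:87793581-87804413), had 2533 CPM and 5267 CPM, the only gene of the rule that was 2-fold lower in the null-labelled members. Ctsg, encoding cathepsin G (minus strand of chr14:56099881-56102574), had 2741 CPM and 3883 CPM. The share of the 4 genes together had a median of 1.68% and a maximum of 3.92% in null-labelled members, and a median of 2.80% and a maximum of 7.44% in control-labelled members.

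Markers outside the rule were set beside the label, which does not describe every member equally well. Secondary granule genes made up 0.5% of UMIs or more in 19 null-labelled and 90 control-labelled members, as given below. Ms4a3, a membrane protein known from GMPs and promyelocytes, was at 1050 CPM in null-labelled members and at 55.2 CPM in all other barcodes of that library, 19.0-fold higher. In the control-labelled library it was at 1328 CPM and 74.3 CPM, 17.9-fold higher. All 37 null-labelled and 297 of 304 control-labelled members held at least 1 Ms4a3 UMI, against 3.19% and 2.05% of barcodes with B cell transcripts, whose median depths were 5444.5 and 2326 UMIs. Outside the rule and beside Ms4a3, the genes that set the members apart most in both libraries were the serine protease gene Prss57, Dmkn, the cystatin gene Cst7, Fkbp11, Fcor, Rapsn, Gstm1, Ldhb and Tmed3. Prss57, which like Elane encodes a protease of neutrophil granules, was 15.7-fold above the other barcodes in the null-labelled library and 18.1-fold in the control-labelled library.

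Not all members were at the same stage. Ngp, Camp and Ltf, secondary granule genes that follow the primary granule genes in neutrophil development, made up 0.5% of UMIs or more in 19 of 37 null-labelled members (51.4%, interval 34.4 to 68.1) and in 90 of 304 control-labelled members (29.6%, 24.5 to 35.1). The other 18 and 214 members are called early below, and these 19 and 90 late. The limit of 0.5% was set after the data were seen, and 5 null-labelled and 20 control-labelled members lay between 0.25% and 1%. The early members had a median primary granule share of 2.18% and 2.83%, and the late ones of 1.58% and 2.72%. The median secondary granule share of the late members was higher than that, at 2.30% and 4.63%. Each comparison of genes below therefore also sets a null-labelled pool with relatively more late members against a control-labelled pool with relatively more early ones. Values within these early and late groups are given for some genes and lists only, and the other values are those of the pools. A single limit does not make the groups equal in secondary granule share, as the late medians of 2.30% and 4.63% show. It is also set on genes that themselves differed between the libraries, as given below.

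**Figure D1:**
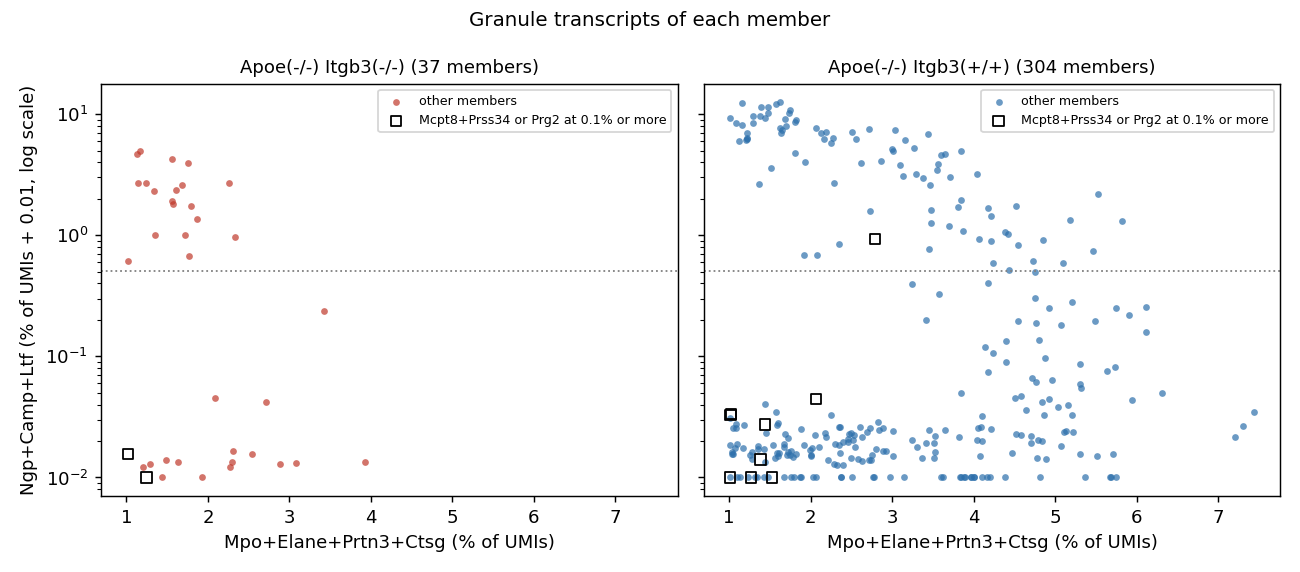
Each point is 1 member, by its share of UMIs from Mpo, Elane, Prtn3 and Ctsg (horizontal axis, %) and from Ngp, Camp and Ltf (vertical axis, % plus 0.01, log scale), with the Apoe(-/-) Itgb3(-/-) library on the left and the Apoe(-/-) Itgb3(+/+) library on the right. The dotted line is the 0.5% limit between early and late members, and open squares are members with basophil or eosinophil transcripts at 0.1% of UMIs or more; no null-labelled member passes 3.92% on the horizontal axis, while control-labelled members reach 7.44%.

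Transcripts of other marrow cells were looked for in the members. The limits on Cd3, Cd79 and hemoglobin transcripts were part of the rule, so low levels of these are no finding. Outside it, the T cell marker Trac was at 0 in both libraries and the B cell marker Ebf1 at 0 in null-labelled members. The classical dendritic cell list was at 0.810 CPM and 2.29 CPM, the plasma cell list at 3.24 CPM and 0.529 CPM, and the stromal and endothelial list at 12.2 CPM and 18.3 CPM. The monocyte list was at 1904 CPM and 1581 CPM, and the macrophage list at 142 CPM and 86.1 CPM. The plasmacytoid dendritic cell list, which holds the interferon-induced Bst2, was at 716 CPM and 318 CPM with its defining marker Siglech at 0 in both. Of the natural killer cell list, Nkg7 alone was detected, at 213 CPM and 769 CPM. Erythroid markers, mainly Hbb-bs, summed to 273 CPM and 1295 CPM, with per-barcode medians of 2.48 and 6.92 UMIs per 10000. Mcpt8 and Prss34, proteases of basophils, made up 0.1% of UMIs or more in 2 null-labelled and 7 control-labelled members, and the eosinophil granule gene Prg2 did so in 0 and 2 members. The basophil share was 7.63% and 3.94% in these 2 null-labelled members, both of them early, and 1.32% to 9.29% in the 7 control-labelled ones. In each of them it was above the primary granule share, so the label describes these members less well. Over all members the basophil and mast cell list summed to 1621 CPM and 904 CPM, and the eosinophil list to 0.810 CPM and 329 CPM. The part of these transcripts in the results below was not tested, except where values without those members are given.

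Among the 2739 genes counted outside the rule, which reached 50 CPM in one or the other library and 30 UMIs in all, 237 genes (8.65%) were 2-fold or more higher in null-labelled members. A further 224 genes (8.18%) were 2-fold or more lower. The median log2 ratio of these genes was -0.09, and that of all 8532 genes with at least 30 UMIs was -0.16. The 12 genes furthest higher, ranked by the end of the interval nearest to no difference, were Saa3, Ccl5, Cxcl9, Cxcl10, Serpina3f, Iigp1, Gbp2, Acod1, Stfa1, Ifit1, Serpina3g and Gbp4. The 12 furthest lower were Prg2, Retnlg, Ltf, Ccr2, Lgals1, F13a1, Zeb2, Hk3, Clec12a, Ly86, Tifab and Mgl2. Prg2, the eosinophil granule gene, had 1 and 1805 UMIs, of which 1 control-labelled cell gave 54.6%, and its log2 ratio was -0.38 once the members with basophil or eosinophil transcripts were left out, against -8.62 with them. Scaling changed the balance between the directions, with 266 genes higher and 181 lower under TMM factors and 278 and 168 under median-of-ratios size factors. Under the last of these the median of the 8532 genes was -0.05, a shift of all genes together by more than 0.1, so list medians below are to be read against the median of all genes.

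**Figure D2:**
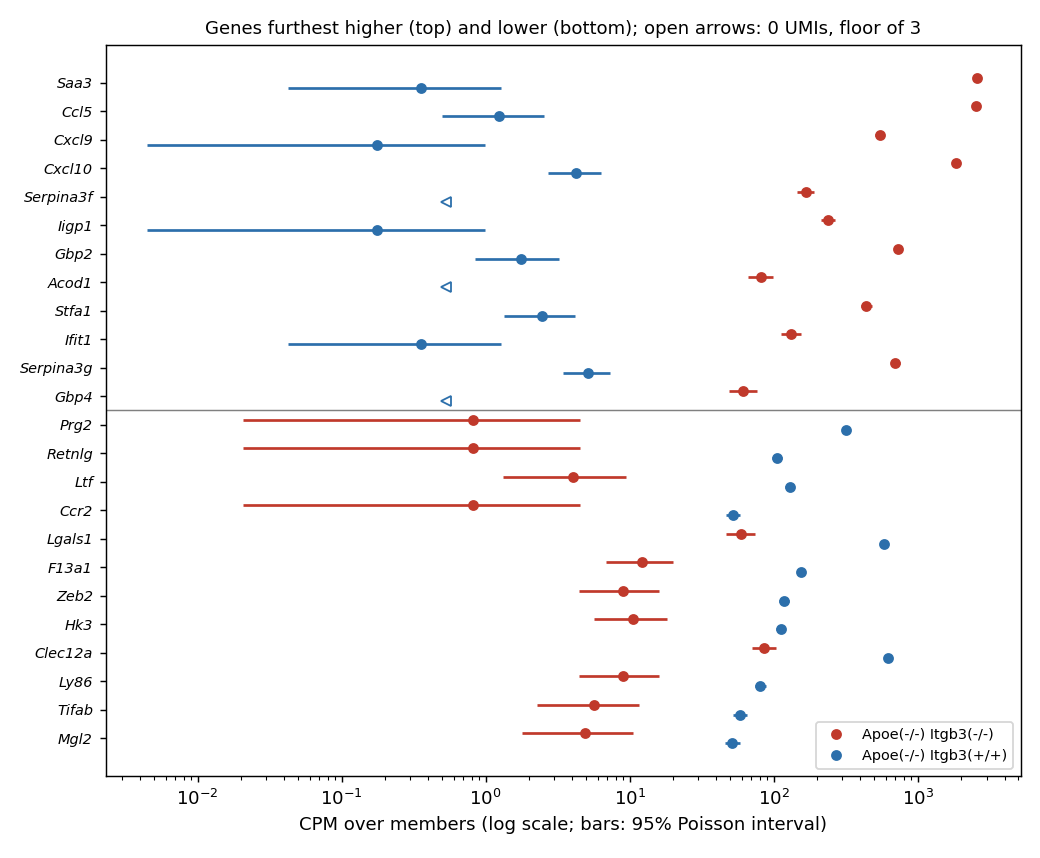
Level of the 12 genes furthest higher (upper block) and the 12 furthest lower (lower block) in members, in CPM on a log axis, with bars for the 95% Poisson interval of the summed UMIs. Red points are the Apoe(-/-) Itgb3(-/-) library and blue points the Apoe(-/-) Itgb3(+/+) library, and open arrows mark 0 UMIs and stand at the floor of 3 UMIs. Saa3 shows the widest gap of the upper block, at 2566 CPM and 0.353 CPM.

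Interferon-response genes were higher in null-labelled members throughout the list. Of the 25 listed genes, 24 had at least 30 UMIs and all 24 were 2-fold or more higher, where 6.65% of all genes with that many UMIs were. The median log2 ratio was 5.27, 5.43 above that of all genes, and it lay between 4.5 and 5.40 over the 14 alternatives run. The value of 4.5 came with each cell drawn down to 1000 UMIs, where only 3 listed genes had enough UMIs. The summed level was 9412 CPM in null-labelled and 377 CPM in control-labelled members, 24.9-fold higher (23.8 to 26.1). Per barcode, the null-labelled members ranged from 38.3 to 177 interferon-response UMIs per 10000 with a median of 81.4, and the control-labelled members from 0 to 25.1 with a median of 2.92. The ranges did not overlap.

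The sets of interferon-induced transcripts covered sensors, signal carriers and effectors. Stat2, a transcription factor that carries the interferon signal, was at 42.9 CPM in null-labelled members, against 6.88 CPM in control-labelled members. Irf7, which amplifies interferon production, was at 186 CPM against 1.06 CPM. Isg15, a ubiquitin-like modifier, had 656 UMIs in 35 of 37 null-labelled members and 24 UMIs in 17 of 304 control-labelled members, and its level was 126-fold higher (83.6 to 197). Ifit1, which binds viral RNA, had 163 and 2 UMIs, a ratio of 374 (102 to 3117).

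The guanylate-binding protein gene Gbp2, one of the GTPases that attack intracellular microbes, was found in every null-labelled member. It had 903 UMIs in null-labelled and 10 UMIs in control-labelled members, 415-fold higher (224 to 868). Per barcode it ranged from 1.38 to 21.0 UMIs per 10000 in null-labelled members, with a median of 6.35, and reached at most 0.651 in control-labelled members, with a median of 0. Gbp4, of the same family, had 76 UMIs against 0 and was at least 116-fold higher, taking a floor of 3 UMIs for the control-labelled library. Iigp1, an immunity-related GTPase on chromosome 18, had 295 UMIs against 1, a ratio of 1355 (241 to 53697). Ifitm3, which restricts virus entry, gave the highest level of the list, at 3092 CPM in null-labelled and 123 CPM in control-labelled members.

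The chemokine genes Cxcl9 and Cxcl10, whose products attract T cells through the receptor Cxcr3, were more uneven between cells. Cxcl10 had 2262 UMIs in 30 of 37 null-labelled members and 24 UMIs in 14 of 304 control-labelled members, 433-fold higher (290 to 677), and 1 null-labelled cell gave 22.6% of its UMIs. Its median was 1.37 UMIs per 10000 in null-labelled members while the highest cell reached 86.7. Cxcl9 was found in 15 null-labelled members with 671 UMIs and in 1 control-labelled member with 1 UMI, a ratio of 3082 (551 to 121910). Ccl5, a chemokine of T cells and monocytes, had 3142 UMIs in 26 null-labelled members and 7 UMIs in 7 control-labelled members, 2062-fold higher (999 to 5132). These chemokine transcripts sat mainly in the early members, with Cxcl10 at 2917 CPM in early and 473 CPM in late null-labelled members, and Ccl5 at 4159 CPM and 523 CPM.

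**Figure D3:**
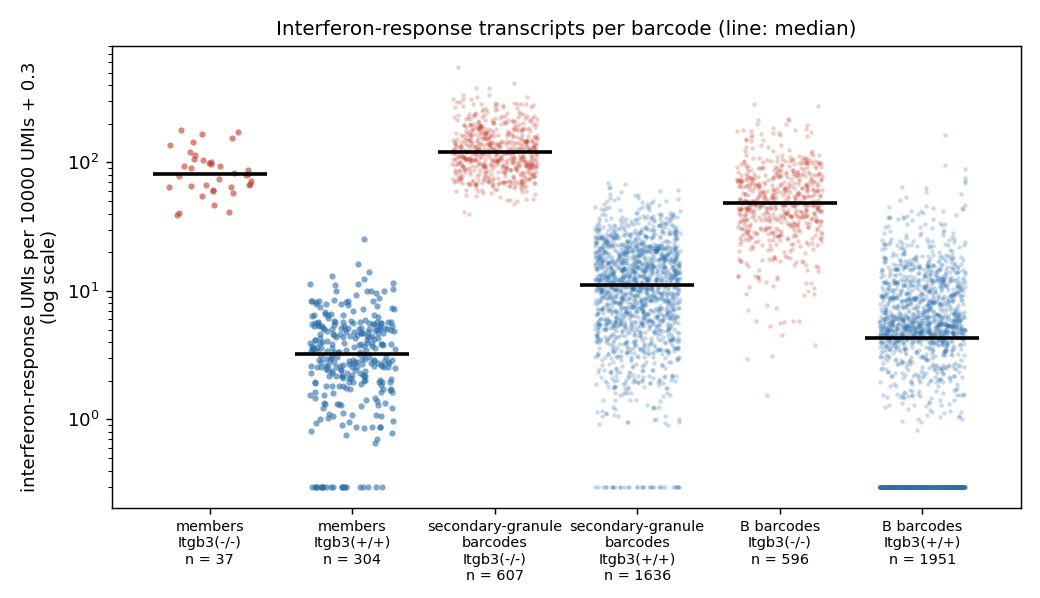
Interferon-response UMIs per 10000 UMIs plus 0.3 (log scale) for each barcode of the members, of barcodes with secondary granule transcripts and of barcodes with B cell transcripts, each with the Itgb3(-/-) library (red) left of the Itgb3(+/+) library (blue). Black lines are medians including the offset; the 37 and 304 members do not overlap, and the other barcodes of the null-labelled library also lie mostly above those of the control-labelled library.

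The promoters of these genes are shown because an element known to bind interferon-activated factors can be read in them. The element searched was GAAA, any 2 bases and GAAA again, on both strands and with overlapping matches allowed, in the RefSeq windows from 250 bases before to 50 bases after each start (GRCm38.p6). It occurred in 3.44% of 32851 windows and in 3.99% of 27025 genes with a window. Of the interferon-response list, 20 genes had a window and 16 of them held the element. Of the 12 genes furthest higher, 9 had a window and 4 held it. A match is a description of letters in the window and shows no binding. The windows of 4 interferon-response genes and of Saa3 follow, 5′ to 3′ on the strand of the gene, with the matches in capitals. They are for Isg15 at chr4:156200769-156201068 on the minus strand, Ifit1 at chr19:34640639-34640938 on the plus strand, Gbp2 at chr3:142620413-142620712 on the plus strand, Cxcl10 at chr5:92348840-92349139 on the minus strand and Saa3 at chr7:46715627-46715926 on the minus strand.
Isg15: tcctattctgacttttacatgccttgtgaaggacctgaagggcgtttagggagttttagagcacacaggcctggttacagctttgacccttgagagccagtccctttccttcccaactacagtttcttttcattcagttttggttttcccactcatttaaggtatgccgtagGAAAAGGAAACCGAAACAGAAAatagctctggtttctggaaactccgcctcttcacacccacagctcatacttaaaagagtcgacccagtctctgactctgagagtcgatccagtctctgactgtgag
Ifit1: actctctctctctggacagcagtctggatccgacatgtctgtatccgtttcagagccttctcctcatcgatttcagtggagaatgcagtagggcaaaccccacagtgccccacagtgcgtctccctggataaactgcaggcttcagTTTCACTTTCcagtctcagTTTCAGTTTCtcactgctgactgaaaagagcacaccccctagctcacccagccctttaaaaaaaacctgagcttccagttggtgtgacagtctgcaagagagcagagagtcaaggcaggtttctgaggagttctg
Gbp2: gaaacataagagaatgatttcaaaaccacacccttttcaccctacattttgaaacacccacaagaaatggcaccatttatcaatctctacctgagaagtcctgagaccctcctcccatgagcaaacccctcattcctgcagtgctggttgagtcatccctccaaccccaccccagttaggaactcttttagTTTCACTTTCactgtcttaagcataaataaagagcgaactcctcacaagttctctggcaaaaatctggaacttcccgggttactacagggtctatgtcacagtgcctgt
Cxcl10: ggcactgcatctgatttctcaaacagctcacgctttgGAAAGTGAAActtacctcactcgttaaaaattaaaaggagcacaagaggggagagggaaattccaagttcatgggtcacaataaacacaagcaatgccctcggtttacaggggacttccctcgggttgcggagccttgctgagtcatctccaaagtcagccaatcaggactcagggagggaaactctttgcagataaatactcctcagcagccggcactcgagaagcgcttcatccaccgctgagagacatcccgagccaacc
Saa3: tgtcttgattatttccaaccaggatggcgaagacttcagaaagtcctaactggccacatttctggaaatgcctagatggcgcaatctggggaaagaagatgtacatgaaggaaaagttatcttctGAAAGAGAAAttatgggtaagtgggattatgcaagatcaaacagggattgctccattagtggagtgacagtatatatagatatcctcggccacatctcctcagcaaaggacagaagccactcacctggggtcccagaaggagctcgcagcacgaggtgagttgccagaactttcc
In Isg15 there were 3 overlapping matches forming 1 run, in Ifit1 there were 2 separate matches, read on the opposite strand as in Gbp2, and in the other windows 1 match each. The match farthest from the start lay 78 bases before it in Isg15, 104 in Ifit1, 59 in Gbp2, 213 in Cxcl10 and 125 in Saa3.

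The interferon-response genes were also compared within stages and at equal depth. Among early members, 21 of 21 listed genes with at least 30 UMIs were 2-fold higher, with a median log2 ratio of 4.85, and among late members 19 of 19, with a median of 5.61. Per barcode the early members had medians of 95.9 and 3.58 UMIs per 10000, and the late members 70.8 and 1.96. After each cell was thinned to 1000 UMIs, 36 of 37 null-labelled members (97.3%, 85.8 to 99.9) and 4 of 301 control-labelled members (1.33%, 0.363 to 3.37) carried at least 3 UMIs from the interferon list. Unthinned, these were 37 of 37 and 220 of 304. Thinned in the same way, the shares were 76.7% and 4.36% among barcodes with B cell transcripts and 99.2% and 18.5% among those with secondary granule transcripts. The higher levels in the null-labelled library were thus also found in these other barcodes, and the part of free RNA in them was not tested.

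MHC class I presentation, which displays peptides to T cells and is induced by interferons, followed the same direction at smaller size. Of 15 listed genes, all with at least 30 UMIs, 13 were 2-fold or more higher, against 6.65% of all genes, and 0 lower, with a median log2 ratio of 1.35. The summed level was 7177 CPM in null-labelled and 2794 CPM in control-labelled members, 2.57-fold higher (2.503 to 2.64). H2-D1, a classical class I heavy chain, was at 1315 CPM and 548 CPM. Tap1, a subunit of the peptide transporter, was at 388 CPM and 34.8 CPM, 11.2-fold higher (9.44 to 13.3), and Nlrc5, the transactivator of class I genes, was 13.1-fold higher (6.79 to 26.8). The proteasome genes Psmb9 and Psme1 stayed under 2-fold, at 1.75 and 1.66. Per barcode the list had a lowest value of 45.0045 and a median of 72.8 UMIs per 10000 in null-labelled members, and a median of 27.2 and a highest value of 73.9 in control-labelled members. MHC class II genes were sparse, with 3 of 7 reaching 30 UMIs and none of those 3 at 2-fold.

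Acute-phase genes, whose products are made in infection and inflammation, were mostly higher. Of the 8 listed genes with at least 30 UMIs, 7 were 2-fold or more higher, where 6.65% of all genes were, and none was 2-fold lower. The median log2 ratio was 2.93, and it was 2.37 at the lowest among the alternatives. Saa3, a serum amyloid A (ENSMUSG00000040026, minus strand of chr7:46711998-46715700), had 3166 UMIs in 33 of 37 null-labelled members and 2 UMIs in 2 of 304 control-labelled members, a ratio of 7271 (2011 to 60064). Per barcode it had a median of 20.3 and a maximum of 102 UMIs per 10000 in null-labelled members, and a maximum of 0.734 in control-labelled members. In the null-labelled library 89.2% of members held a Saa3 UMI at a median depth of 30916 UMIs, against 12.2% of B cell barcodes at 5444.5 UMIs, and the levels were 2566 CPM in members and 1258 CPM in B cell barcodes. All other barcodes of the null-labelled library together had 2798 CPM of Saa3.

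Lcn2, the siderophore-binding lipocalin of secondary granules, was at 4687 CPM in null-labelled and 582 CPM in control-labelled members, 8.05-fold higher (7.71 to 8.41). In early members it was at 1695 CPM against 58.0 CPM, and in late members at 8442 CPM against 1897 CPM. An Lcn2 UMI was found in 100% and 65.5% of members, and in 24.7% and 14.5% of the shallower B cell barcodes. Hp, encoding haptoglobin, was at 3385 CPM and 814 CPM, and all 37 null-labelled members held it. Il1r2, the decoy receptor for interleukin 1, was at 252 CPM in null-labelled and 6.70 CPM in control-labelled members, 37.6-fold higher (26.8 to 54.1). For Orm1, an acute-phase glycoprotein gene, 427 CPM and 16.6 CPM were counted, a ratio of 25.8 (20.6 to 32.4). By stage the Orm1 ratio was 8.43 in early members, on 10 and 7 UMIs, and 17.5 in late members, both under that of the pool. Stfa1, a cystatin-type protease inhibitor, was 178-fold higher (105 to 327), but 1 cell gave 60.1% of its null-labelled UMIs and 9 of 37 members held it.

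Genes induced through NF-kB were higher as well. Of 13 listed genes with at least 30 UMIs, 11 were higher at 2-fold or more, where 6.65% of all genes were, and 0 were lower. The median log2 ratio was 2.12. Nfkbia, the inhibitor that NF-kB induces, was at 386 CPM and 108 CPM, 3.57-fold higher (3.16 to 4.03). Sod2, mitochondrial superoxide dismutase, was at 922 CPM and 120 CPM, and the adhesion molecule gene Icam1 at 44.6 CPM and 2.65 CPM. Transcripts of Il1b, Il6 and Cxcl1 were at or close to 0 in both, with 0, 2 and 0 UMIs in null-labelled and 14, 2 and 0 in control-labelled members. Acod1, which makes the antimicrobial metabolite itaconate, had 100 UMIs in 16 of 37 null-labelled members and 0 in control-labelled members, at least 153-fold higher. The serpin genes Serpina3f and Serpina3g were at least 314-fold and 137-fold (94.6 to 206) higher.

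The other granule genes went in both directions. Of the 20 other azurophil granule and lysosome genes, 19 had at least 30 UMIs, of which 1 was 2-fold higher and 6 were 2-fold lower, where 6.65% and 14.9% of all genes were. Srgn, the proteoglycan that holds granule proteins, was at 2093 CPM and 2124 CPM, and Plac8 at 3655 CPM and 3246 CPM. Lower were Clec12a, an inhibitory C-type lectin receptor of myeloid cells, at 85.9 CPM and 625 CPM (lower by 7.28-fold, interval 6.00 to 8.92), and Nkg7 at 213 CPM and 769 CPM. Also lower were Prss57 at 103 CPM and 307 CPM, the lysozyme gene Lyz2 at 301 CPM and 928 CPM, whose medians per barcode were 2.47 and 1.98 UMIs per 10000, and Serpinb1a, an inhibitor of the granule proteases, at 373 CPM and 844 CPM. Clec12a was 6.39-fold lower in early members and 9.45-fold lower in late members.

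The secondary and tertiary granule genes were split. Of 15, all with at least 30 UMIs, 8 were 2-fold higher and 5 were 2-fold lower, where 6.65% and 14.9% of all genes were. The median log2 ratio was 1.05. The median was 1.47 in early members and 0.44 in late members, where 5 of 14 were higher and 4 lower, and it turned to -0.33 at a granule minimum of 2%. Ngp, neutrophilic granule protein, was at 6014 CPM and 2908 CPM, 2.07-fold higher (2.01 to 2.13), while Camp, the cathelicidin, was at 5042 CPM and 11943 CPM, 2.37-fold lower (interval 2.31 to 2.43). Among late members alone Ngp was at 13333 CPM and 10083 CPM, and Camp at 11350 CPM and 41322 CPM. In early members, chosen for low levels of both, Ngp was at 181 CPM and 48.9 CPM, and Camp at 14.6 CPM and 233 CPM. Ltf, lactoferrin, had 5 UMIs in 3 null-labelled members and 731 UMIs in 72 control-labelled members, 31.8-fold lower (13.6 to 98.3). Mmp8 and Mmp9 had 0 UMIs in null-labelled members, which allows up to 2.43 CPM each, and 8.998 CPM and 7.06 CPM in control-labelled members, where 5.92% and 6.25% of members held a UMI, against 4.61% and 5.23% of the shallower B cell barcodes. Retnlg, a resistin-like gene of mature neutrophils, had 1 UMI and 600 UMIs. In the control-labelled library a Ltf UMI was found in 23.7% of members at a median depth of 18105 UMIs and in 8.51% of B cell barcodes at 2326 UMIs, and a Retnlg UMI in 31.6% and 16.4%. Summed over those B cell barcodes, Ltf was at 473 CPM and Retnlg at 972 CPM, above the 129 CPM and 106 CPM of the members. The part of free RNA in these levels was not tested.

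Genes of protein folding in the endoplasmic reticulum had a lower summed level in null-labelled members. Of 19 listed genes with at least 30 UMIs, 9 were 2-fold lower, where 14.9% of all genes were, 10 were within 2-fold and 0 higher, with a median log2 ratio of -0.92. The summed level was 4665 CPM and 8892 CPM, 1.91-fold lower. The chaperone gene Calr, calreticulin, was at 481 CPM and 1358 CPM, 2.83-fold lower (interval 2.60 to 3.08). Hspa5, encoding BiP, was at 327 CPM and 727 CPM, and Pdia4, a disulfide isomerase, at 17.8 CPM and 91.6 CPM. Xbp1 and Atf4, transcription factors of the unfolded protein response, were within 2-fold, at 70.5 CPM and 116 CPM and at 95.6 CPM and 81.5 CPM. The list was lower in both stages, with medians of 60.2 and 102 UMIs per 10000 in early members and 29.9 and 53.1 in late members. In B cell barcodes none of 20 genes reached 2-fold, and the median log2 ratio was 0.22.

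Most progenitor genes and lineage transcription factors with at least 30 UMIs were 2-fold lower in null-labelled members, where 14.9% of all genes were. Of 9 progenitor genes with at least 30 UMIs, 6 were 2-fold lower and 1, Gata2, was higher, with a median log2 ratio of -2.23. The median was -1.83 in early members, and -2.37 in late members, where only 3 genes had 30 UMIs. Myb, which maintains proliferating progenitors, was at 31.6 CPM and 209 CPM, 6.599-fold lower (interval 4.80 to 9.33), and at 52.4 CPM and 254 CPM in early members. Cd34 was at 8.10 CPM and 48.9 CPM, 6.03-fold lower (interval 3.23 to 12.7), and Cdk6, a kinase of cell cycle entry, at 101 CPM and 231 CPM. By stage, Cdk6 was 1.66-fold lower in early and 5.17-fold lower in late members. Kit, the stem cell factor receptor, was within 2-fold at 25.9 CPM and 31.6 CPM. The 38 null-labelled Gata2 UMIs lay in 3 members, of which 1 gave 55.3%.

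Of the 14 granulocyte-monocyte transcription factors with at least 30 UMIs, 10 were 2-fold lower and 0 higher, with a median log2 ratio of -1.36. The median was -1.12 in early and -1.28 in late members. The 10 were Cebpa, Cebpd, Runx1, Gfi1, Irf8, Klf4, Myc, Myb, Zeb2 and Per3. Spi1, which encodes PU.1 and is needed for both branches, was at 440 CPM and 262 CPM, and Cebpb, a factor of emergency granulopoiesis, at 474 CPM and 262 CPM, both under 2-fold. Gfi1, the repressor that favours the neutrophil branch, was at 8.10 CPM and 57.9 CPM, 7.14-fold lower (interval 3.83 to 15.0). Cebpe, needed for the step to secondary granules, was within 2-fold at 207 CPM and 323 CPM. Of 14 neutrophil branch genes, all with at least 30 UMIs, 3 were 2-fold higher and 5 lower, where 6.65% and 14.9% of all genes were. Higher were Chil3, Ngp and Hp, and lower were Gfi1, Serpinb1a, Ltf, Camp and Cd177. The median log2 ratio was -0.43. In early members 4 of 13 were higher and 4 lower, with a median of -0.63, and in late members 1 and 6 of 14, with -0.81.

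On the monocyte side, 6 of 12 genes with at least 30 UMIs were 2-fold lower and 1 was higher, against 14.9% and 6.65% of all genes, with a median log2 ratio of -1.33. The direction was that of the early members, where 7 of 12 were lower, 0 higher and the median was -1.74. In late members only 5 genes had 30 UMIs, of which 3 were higher and 0 lower, with a median of 1.17. Klf4, a monocyte differentiation factor, had 0 UMIs in null-labelled members, which allows up to 2.43 CPM, and 279 UMIs in 58 control-labelled members, at least 20.2-fold lower. B cell barcodes held Klf4 at 11.7 CPM and 51.2 CPM, the same direction, and the control-labelled members were at 49.2 CPM. By stage, the control-labelled members had 272 Klf4 UMIs in early (67.1 CPM) and 7 in late members (4.33 CPM). The part of free RNA in these Klf4 levels was not tested. Irf8, which directs progenitors to monocytes, was at 35.7 CPM and 182 CPM, 5.09-fold lower (interval 3.77 to 7.05). F13a1, the transglutaminase gene of monocytes, was at 12.2 CPM and 155 CPM, and the chemokine receptor gene Ccr2 had 1 and 296 UMIs. Ly86 was at 8.91 CPM and 80.8 CPM. The F13a1 UMIs lay in 9 of 37 and 112 of 304 members, with F13a1 at 16.0 CPM and 214 CPM in early and at 7.31 CPM and 7.43 CPM in late members. The summed level of the list did not go with its median, at 2160 CPM and 2055 CPM, with Ly6c2 as the largest term at 1771 CPM and 1076 CPM. Lgals1, Zeb2, Hk3, Tifab and Mgl2, among the 12 genes furthest lower, were at 4.86 to 59.2 CPM in null-labelled and 51.7 to 586 CPM in control-labelled members.

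The presence of these transcripts per cell was compared at equal depth. With each member thinned to 10000 UMIs, which left 36 null-labelled and 273 control-labelled members, Myb was found in 8 (22.2%, 10.1 to 39.2) and 203 (74.4%, 68.7 to 79.4). Gfi1 was found in 1 (2.78%, 0.0703 to 14.5) and 104 (38.1%, 32.3 to 44.1), and Klf4 in 0 and 47 (17.2%, 12.9 to 22.2), set beside 8.72% and 14.6% of unthinned B cell barcodes. A count of 0 of 36 allows a share of up to 8.33%. F13a1 was found in 3 (8.33%, 1.75 to 22.5) and 86 (31.5%, 26.0 to 37.4). Unthinned B cell barcodes, which should lack F13a1, held it in 3.36% and 3.49% at their lower depth. Spi1, Cebpb, Cebpe and Fcnb were found in 69.4% to 97.2% of null-labelled and 61.5% to 90.8% of control-labelled members, with intervals that overlapped for each gene.

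**Figure D4:**
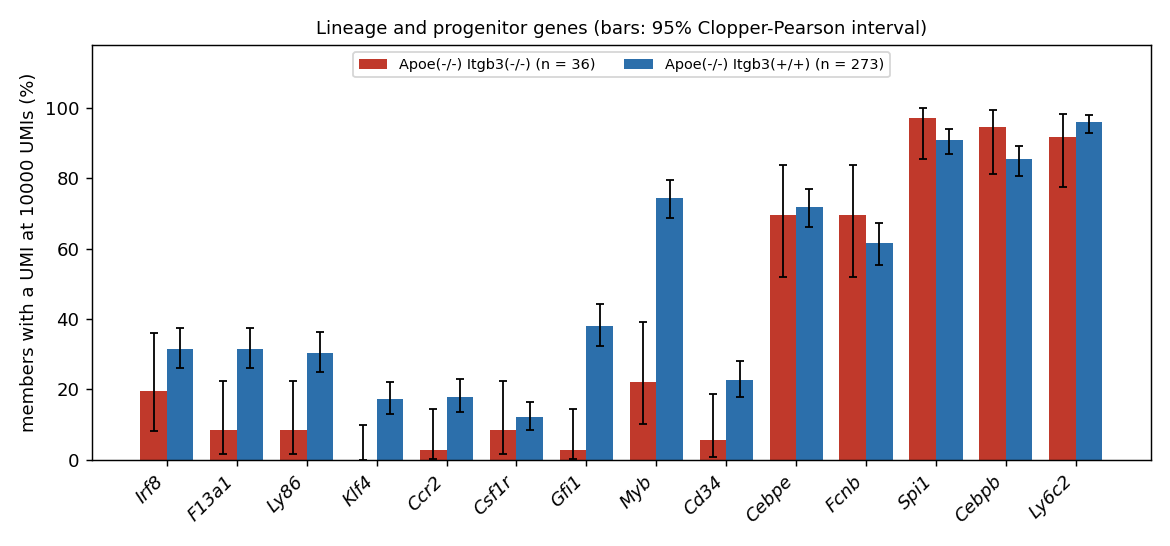
Share of members with at least 1 UMI of each lineage or progenitor gene after thinning each member to 10000 UMIs, with bars for exact 95% Clopper-Pearson intervals; red bars are 36 members of the Apoe(-/-) Itgb3(-/-) library and blue bars 273 members of the Apoe(-/-) Itgb3(+/+) library. Myb, Gfi1 and the monocyte genes F13a1 and Ly86 are found in fewer of the null-labelled members, Klf4 in 0% and 17.2% with 8.72% and 14.6% of unthinned B cell barcodes, while Spi1 is found in 97.2% and 90.8%.

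Receptors for the cytokines that drive these progenitors varied gene by gene. Of 14 with at least 30 UMIs, 1 was 2-fold higher and 4 were 2-fold lower, where 6.65% and 14.9% of all genes were, so the higher share is near that of all genes. Csf2rb, the shared chain of the receptors for granulocyte-macrophage colony-stimulating factor and interleukin 3, was at 91.6 CPM and 34.8 CPM, 2.63-fold higher (2.07 to 3.34). Csf3r, the receptor for granulocyte colony-stimulating factor, was at 21.1 CPM and 54.3 CPM, 2.58-fold lower (interval 1.73 to 4.01), and Csf1r, its monocyte counterpart, at 5.67 CPM and 19.1 CPM. The receptor gene for interferon gamma Ifngr1 was at 105 CPM and 252 CPM, 2.41-fold lower (interval 2.01 to 2.91). Those for type I interferon, Ifnar1 and Ifnar2, were within 2-fold, at 17.8 CPM and 13.1 CPM and at 89.9 CPM and 50.8 CPM.

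Cell cycle transcripts were within 2-fold over all members. None of 16 DNA replication genes and none of 18 G2 and mitosis genes reached 2-fold in either direction, with median log2 ratios of -0.19 and -0.28. Pcna, the replication clamp, was at 154 CPM and 100 CPM, and Mki67 at 152 CPM and 247 CPM. At 1000 UMIs per cell, 21 of 37 null-labelled members (56.8%, 39.5 to 72.9) and 180 of 301 control-labelled members (59.8%, 54.0 to 65.4) carried at least 2 UMIs from the G2 and mitosis list. Unthinned, these were 36 of 37 and 298 of 304. The thinned shares were 13.3% and 17.8% in B cell barcodes and 21.8% and 22.98% in those with secondary granule transcripts. The interval of the log2 ratio of the shares, -0.80 to 0.58, leaves room for a difference in either direction. Within stages the medians were 15.0 and 15.0 UMIs per 10000 in early members, and 13.2 and 28.9 in late members. In late members 3 of the 18 genes were 2-fold lower and 0 higher. That lower share is near the 14.9% of all genes over all members, and no such share was counted for late members alone.

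Itgb3 (ENSMUSG00000020689, plus strand of chr11:104608000-104670476), the gene the labels differ in, had 0 UMIs in null-labelled members and 12 UMIs in 11 control-labelled members. That is 2.12 CPM (1.09 to 3.70) in control-labelled members, held by 3.62% of them, against 3.998% of the shallower control-labelled B cell barcodes, and 0 UMIs allow up to 2.43 CPM. No fold is given, and the gene was not read as expressed in members of either library. The labels do not state the deleted part of Itgb3, and 3′ counts from outside it cannot check the genotype. The partner genes Itga2b and Itgav had 13 and 6 UMIs in null-labelled and 21 and 37 UMIs in control-labelled members. Of 13 integrin-related genes with at least 30 UMIs, 1 was 2-fold higher and 1 was 2-fold lower, where 6.65% and 14.9% of all genes were. The higher share is thus near that of all genes and the lower share below it. Itga2b was the higher gene, a call lost at a granule minimum of 2% where its log2 ratio was 0.13 against 1.51. Itga1, with 0 and 112 UMIs, was at least 8.13-fold lower. Apoe was counted at 41.3 CPM (30.8 to 54.3) and 31.4 CPM (27.0 to 36.4), although both genotypes lack it by label, with the same limit of 3′ counting.

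The list medians were set beside those of other barcodes, from summed UMIs. The interferon-response median was 5.27 in members, 5.13 in barcodes with secondary granule transcripts and 3.65 in B cell barcodes. MHC class I medians were 1.35, 2.85 and 1.18 in the same order, and acute-phase medians 2.93, 2.10 and 1.52. ER folding genes had medians of -0.92, -0.12 and 0.22, and granulocyte-monocyte transcription factors -1.36, -0.44 and -0.12. The medians of all genes in these barcodes were -0.16, -0.09 and -0.14. The differences between kinds of cell were not tested, since 1 library per genotype gives no error for them.

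**Figure D5:**
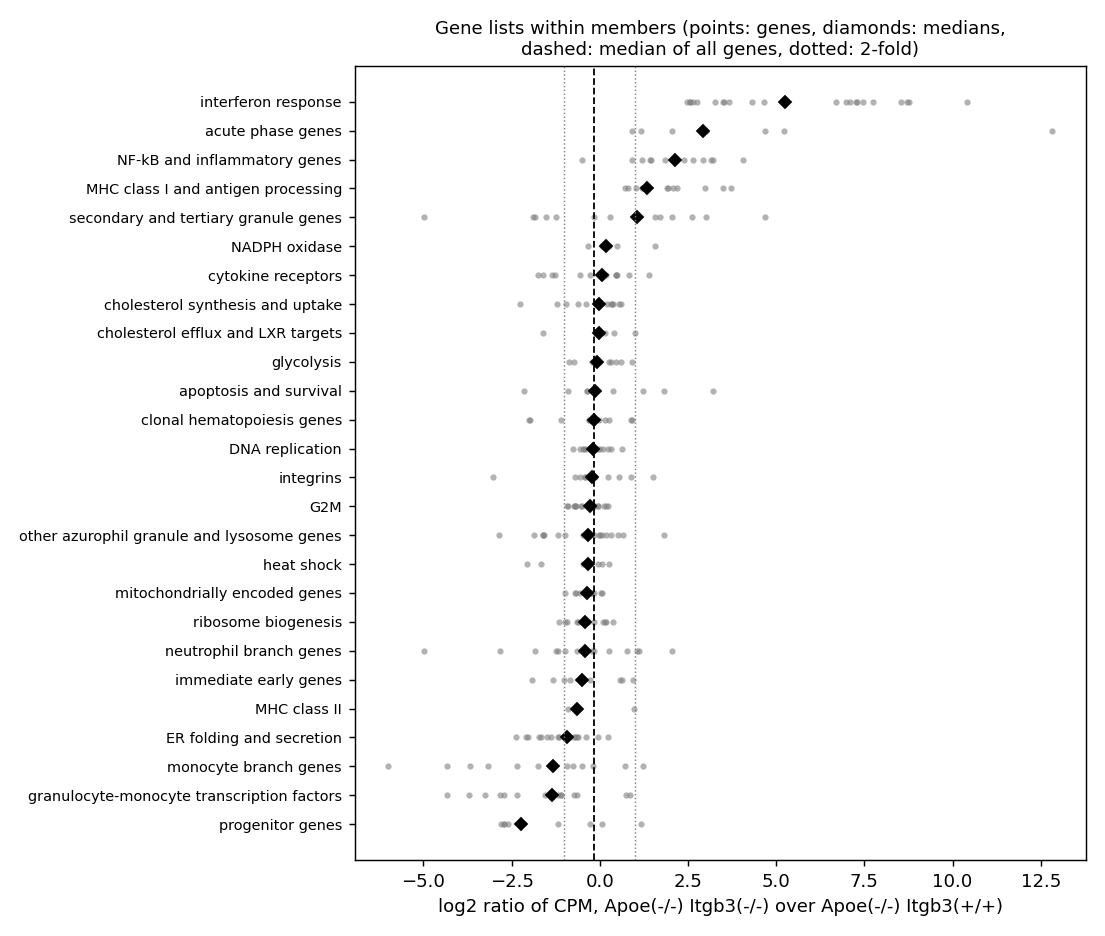
log2 ratio of CPM in members, Apoe(-/-) Itgb3(-/-) over Apoe(-/-) Itgb3(+/+), for each gene with at least 30 UMIs (points) in 26 gene lists, with the list median (diamond), the median of all genes (dashed line, -0.16) and 2-fold either way (dotted lines). Interferon-response genes lie highest with a median of 5.27, and progenitor genes and lineage transcription factors lowest with medians of -2.23 and -1.36.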

How the data were processed

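The 2 libraries of droplet-based 3′ RNA sequencing from mouse bone marrow were sequenced as 1 per genotype. The authors deposited whole-number UMI counts per gene and barcode, not normalized, which per the submitters' processing notes were made with Cell Ranger 3.0 on mm10 and then handled with Seurat, while the matrix headers name software version 3.1.0. Positions are those of GENCODE vM21 on GRCm38 (mm10), in which 99.9% of the 31053 features had their ID.

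The deposited barcodes numbered 4281 in the null-labelled and 12764 in the control-labelled library with 44694854 and 79192158 UMIs, of which 2974 and 9285 passed the cell filter. The members, the gene lists, the 0.5% stage limit and the alternatives were chosen with earlier results of these data known. UMIs were summed over the members of each library. Ratios have exact intervals from the split of the UMIs, levels exact Poisson intervals and shares exact Clopper-Pearson intervals, all at 95% and for counting error only. With 0 UMIs a floor of 3 UMIs per library was used. B cell barcodes (3 or more UMIs of Cd79a plus Cd79b) numbered 596 and 1951 and were set beside the members. Their CPM is a sum over barcodes in which few barcodes can carry most UMIs of a gene, so it is not a level of free RNA. In control-labelled B cell barcodes the secondary and tertiary granule genes summed to 9154 CPM, with a median of 3.80 and a maximum of 1594 UMIs per 10000 per barcode. Barcodes with secondary granule transcripts numbered 607 and 1636. Named genes were the 12 furthest in each direction, the leading members of 27 gene lists by level and ratio, and the genes of the rule, Ms4a3, Itgb3, Apoe, Itga2b and Itgav. Other list genes were named as examples of their roles after their values were seen. Predicted, immunoglobulin, T cell receptor, hemoglobin, mitochondrial and sex-linked genes were left out of the ranking. Doublets were scored with Scrublet in scanpy 1.11.5, which marked 71 and 690 barcodes, and were kept in the values given. The ratios, their intervals and the 2-fold calls were tested on simulated sums with counting error only. That simulation held no differences between cells and did not cover the choice of members, the thinning or the stages. Python 3.11.15, numpy 2.4.6, scipy 1.17.1, pandas 2.3.3 and edgeR 4.0.16 (TMM factors only) were used. Some measured genes are not reported here.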

Additional observations from a re-analysis of the deposited data

Results flagged for a closer look

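The median ratio of the secondary and tertiary granule genes had opposite signs in 2 kinds of barcode. The median log2 ratio, null-labelled over control-labelled, was 1.048 in GMP/promyelocytes and -2.5 in barcodes with B cell transcripts, which should lack these genes. The genes themselves were split. In GMP/promyelocytes 8 of 15 were 2-fold higher and 5 lower, where 6.65% and 14.9% of all genes were. By stage the median was 1.47 in early and 0.44 in late members. In B cell barcodes 2 of 14 were higher and 9 lower. The value in B cell barcodes rests on summed UMIs (null-labelled 2437 CPM, control-labelled 9154 CPM), while the medians per barcode were 4.35 and 3.80 UMIs per 10000, which is the other direction. The highest B cell barcode reached 628 and 1594 UMIs per 10000. The difference between the 2 kinds of barcode was not tested.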

How the results depend on the processing

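Over 17 alternatives, the counts, shares and interferon median that answer a comparison stayed close in 50 of 59 values and moved in 9. The log2 ratio of the share of barcodes was -1.40 and became -2.487 at a granule minimum of 2%; at 5% the null-labelled library held 0 members and gave no value. Against 237 genes higher and 224 lower, 84 were higher when members were thinned to 1000 UMIs, which left 1435 genes to count. Without the CPM minimum 567 were higher and 1269 lower, and with any number of UMIs 999 and 1616. The log2 ratio of the share of members with interferon transcripts was 6.19 at 1000 UMIs, 0.4666 unthinned, 1.791 with 1 or more UMIs as the limit and 0.8639 at 10000 UMIs, the share in null-labelled members being 100% in the last 3. The secondary and tertiary granule median reversed, from 1.05 to -0.3322, at a granule minimum of 2%, and Plin2 from 1.00 to -1.063 when thinned to 1000 UMIs; the cause was not tested. Of the other values, 1705 stayed close, 298 moved and 2 reversed. Medians of the cholesterol, glycolysis, cytokine receptor, apoptosis, clonal hematopoiesis and neutrophil branch lists changed sign among settings. No paired analysis was possible because each genotype has 1 library. Depth limits the 37 null-labelled members most, where 0 UMIs allow up to 2.43 CPM.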

Other observations

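Further gene groups were measured in GMP/promyelocytes, each as genes at 2-fold or more in null-labelled against control-labelled members. Among all genes with at least 30 UMIs, 6.65% were 2-fold higher and 14.9% 2-fold lower, and for groups of this size a few lower genes lie near that share. Among 6 genes of the NADPH oxidase, which makes superoxide in phagocytes, Cybb was higher at 635 CPM and 213 CPM, and 0 were lower. By stage, the ratio of Cybb was 5.42 in early and 1.61 in late members. Of 11 survival genes with at least 30 UMIs, Mcl1, Bcl2l1 and Bcl2a1b were higher by 2.33-fold, 3.52-fold and 9.19-fold, and Bcl2 was 4.403-fold lower. Of 9 immediate early genes 0 were higher, and Fos, Fosb and Btg2 were lower by 2.53-fold, 2.01-fold and 3.78-fold. Of 8 heat shock genes, Hsph1 and Hspe1 were lower by 4.17-fold and 3.15-fold. Of 16 ribosome biogenesis genes, Bop1 was lower.

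Metabolic genes were mostly within 2-fold. None of 14 glycolysis genes and none of 13 mitochondrially encoded genes reached it, with median log2 ratios of -0.06 and -0.37. Of 15 cholesterol synthesis and uptake genes, Sqle and Dhcr7 were lower on 2 and 0 null-labelled UMIs. Of 7 efflux and LXR target genes, Plin2, which coats lipid droplets, was higher at 135 CPM and 67.6 CPM, and Scd2 was 3.05-fold lower. Of 10 genes mutated in clonal hematopoiesis, Trp53, Runx1 and Ezh2 were lower by 3.99-fold, 2.14-fold and 3.92-fold, and 0 were higher.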
